A study of Mus musculus with 2 samples.

Results

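The genes described here encode 3 osteocalcins (Bglap, Bglap2 and Bglap3) and 7 other proteins of bone mineralization (Ibsp, Dmp1, Spp1, Mepe, Phex, Ifitm5 and Alpl). These 10 genes were chosen by symbol, each symbol matched 1 of the 32288 features in the gene list, and their levels were not used in the choice. The data were UMI counts (unique molecular identifiers, 1 per captured transcript) from 10x Chromium 3′ v3.1 libraries of periosteal cells, the cells of the thin layer that covers bone. Both libraries were replicates of a single condition, the femur and tibia periosteum of wild-type C57BL6 mice, 4 weeks old, dissociated with collagenase and sorted on CD45, CD31, Ter-119 and DAPI. No treatment was compared, so the comparisons were between cell classes within these libraries, to determine which cell types carried the transcripts of the mineralization proteins. The number of mice behind each library was not given.

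Bone matrix is laid down by osteoblasts as collagen I and then mineralized, and growth plate cartilage is mineralized in its hypertrophic zone. Alkaline phosphatase frees phosphate from pyrophosphate, an inhibitor of mineral, and the small integrin-binding glycoproteins, a family of acidic matrix proteins that includes Ibsp, Dmp1, Spp1 and Mepe, bind mineral and collagen. Osteocalcin is a small vitamin K-dependent protein of bone matrix that osteoblasts make late in their maturation, and osteoblasts buried in the matrix become osteocytes.

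Library 1 held 9932 barcodes and 100808649 UMIs, and library 2 held 3659 barcodes and 33306452 UMIs. Barcodes were kept from 500 genes and 500 UMIs on, where mitochondrial UMIs made up at most 10%, and 6276 and 2893 cells were left, with medians of 8164 and 6279 UMIs. Despite the sort on CD45, 7601 of the 9169 kept cells fell in hematopoietic clusters and 1568 in stromal clusters. Both libraries were labelled wild type, but reporter sequences were counted: tdTomato had 1482 UMIs in library 1 and 4627 in library 2, and EGFP had 0 and 6837. The libraries shared 7 kept barcodes. Cells were clustered without the 10 genes and without 21 other genes of the mineralization pathway, so that their own counts did not place cells in classes. Osteoblast-like cells (88 in library 1 and 165 in library 2) held Col1a1, the main collagen of bone, at 103059 and 91127 counts per 1000000 UMIs of the class (CPM). Hypertrophic chondrocyte-like cells (17 and 47) held Col10a1, the collagen of hypertrophic cartilage, at 27845 and 20088 CPM, and their name rested on 3 of its 8 markers. A further cluster (68 and 74 cells) was led by Col10a1 and Mgp and held 81579 and 45035 CPM of Col10a1. Its best match was the chondrocyte-like marker list (4 markers found), but another list held more of its leading genes. Of those genes, Col10a1 is on the hypertrophic list. The cluster was therefore left unnamed and is called the Col10a1/Mgp cluster. As an unnamed cluster it entered none of the main tests, although it held more Col10a1 than the hypertrophic chondrocyte-like cells. The other classes used were chondrocyte-like (27 and 124), periosteal fibroblast-like (19 and 294), Lepr+ stromal-like (66 and 8) and B cell-like (1366 and 820). The last served as the measure of free RNA, since B cells do not make bone matrix.

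The osteocalcin coding sequences are shown because their likeness limits how reads could be told apart. In GENCODE M21 on GRCm38, the genes lay head to tail on the minus strand of chromosome 3, within 15.85 kb (chr3:88368616-88384464), with no other protein-coding gene between them. Each had 4 exons and a coding sequence of 285 bases (95 codons). The coding parts span chr3:88383638-88384415 for Bglap, chr3:88377873-88378650 for Bglap2 and chr3:88368759-88369536 for Bglap3, introns included. Capitals mark bases that differ from Bglap.
Bglap: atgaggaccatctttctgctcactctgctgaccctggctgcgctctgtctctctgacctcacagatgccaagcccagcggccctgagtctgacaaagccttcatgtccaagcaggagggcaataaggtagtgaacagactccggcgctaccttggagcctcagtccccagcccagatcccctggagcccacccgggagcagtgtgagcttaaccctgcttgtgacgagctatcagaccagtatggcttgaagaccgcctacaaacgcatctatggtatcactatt
Bglap2: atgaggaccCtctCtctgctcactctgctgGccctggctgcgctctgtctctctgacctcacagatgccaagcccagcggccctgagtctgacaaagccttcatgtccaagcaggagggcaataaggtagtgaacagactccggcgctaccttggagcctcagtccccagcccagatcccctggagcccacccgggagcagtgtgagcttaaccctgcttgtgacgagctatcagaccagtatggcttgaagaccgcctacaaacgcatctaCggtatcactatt
Bglap3: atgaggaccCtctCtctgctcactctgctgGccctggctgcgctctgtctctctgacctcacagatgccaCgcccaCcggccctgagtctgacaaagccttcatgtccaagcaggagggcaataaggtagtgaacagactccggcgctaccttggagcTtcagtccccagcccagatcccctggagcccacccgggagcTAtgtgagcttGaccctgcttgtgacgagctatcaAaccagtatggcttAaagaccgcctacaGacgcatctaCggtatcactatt
Bglap2 differed from Bglap at 4 coding bases (98.6% identity) and 3 amino acids, whereas Bglap3 differed from Bglap at 13 bases (95.4%) and 9 amino acids. Reads of 3′ libraries come from the end of a transcript. Of the 211 stretches of 90 bases in the last 300 bases of the Bglap transcript, 121 (57.4%) were also found in Bglap2, and 0 were found in Bglap3. Reads that fit both genes cannot be assigned to one, so the split between Bglap and Bglap2 is uncertain, and the Bglap3 counts do not share this limit with Bglap.

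The genes of the acidic matrix proteins were also neighbors. Dmp1, Ibsp, Mepe and Spp1 followed each other on the plus strand of chromosome 5 within 238.4 kb (chr5:104202613-104441050), with no other protein-coding gene between them. Phex (X), Ifitm5 (7) and Alpl (4) lay on other chromosomes. Ifitm5, Spp1 and Phex each overlapped annotated genes on the same strand (Gm45717 for Ifitm5, Gm42793 for Spp1, Gm25795 and Gm15172 for Phex), so some of their reads may have been left uncounted. RefSeq promoter windows (GRCm38.p6, 250 bases before to 50 bases after a start) were found for 9 of the 10 genes, in 14 windows, and Bglap2 had no entry. They were searched on both strands for ACCACA, the core motif bound by RUNX factors, of which Runx2 is the main regulator of osteoblasts. It was in 4 of the 14 windows, of Bglap, Dmp1, Spp1 and Mepe, and in 5506 of all 32851 windows (16.8%). The 4 windows that held the motif are shown. Dmp1 and Spp1 each also had a window without it, which is not shown. Capitals mark the motif, in Mepe on each strand.
Bglap, minus strand of chr3:88384417-88384716: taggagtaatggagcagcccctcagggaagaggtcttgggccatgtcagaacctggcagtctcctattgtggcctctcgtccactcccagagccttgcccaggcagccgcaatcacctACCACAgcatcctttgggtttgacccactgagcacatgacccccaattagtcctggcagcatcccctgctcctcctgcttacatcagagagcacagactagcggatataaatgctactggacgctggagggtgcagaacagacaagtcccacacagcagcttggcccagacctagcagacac
Dmp1, plus strand of chr5:104202367-104202666: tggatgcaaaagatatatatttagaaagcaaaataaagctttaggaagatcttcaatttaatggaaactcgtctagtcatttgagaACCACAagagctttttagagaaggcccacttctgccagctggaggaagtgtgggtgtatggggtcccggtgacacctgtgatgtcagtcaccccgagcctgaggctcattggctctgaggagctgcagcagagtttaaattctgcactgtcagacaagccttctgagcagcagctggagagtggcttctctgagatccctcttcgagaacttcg
Spp1, plus strand of chr5:104434861-104435160: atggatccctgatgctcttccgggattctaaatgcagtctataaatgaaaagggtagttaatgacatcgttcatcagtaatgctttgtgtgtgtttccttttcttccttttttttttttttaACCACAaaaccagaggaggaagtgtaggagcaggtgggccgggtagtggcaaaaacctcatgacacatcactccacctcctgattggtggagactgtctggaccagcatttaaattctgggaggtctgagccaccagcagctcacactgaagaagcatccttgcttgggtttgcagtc
Mepe, plus strand of chr5:104325079-104325378: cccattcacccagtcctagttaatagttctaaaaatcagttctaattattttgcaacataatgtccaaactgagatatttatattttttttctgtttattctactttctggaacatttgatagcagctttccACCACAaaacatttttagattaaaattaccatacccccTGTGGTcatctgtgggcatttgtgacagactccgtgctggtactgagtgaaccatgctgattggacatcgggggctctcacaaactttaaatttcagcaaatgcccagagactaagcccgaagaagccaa
A match is a description of these letters and was not tested as a binding site.

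Bglap and Bglap2, the main osteocalcin genes, were among the most abundant transcripts of the osteoblast-like cells. Bglap was at 18778 CPM in library 1 and 13491 in library 2, Bglap2 at 8603 and 4862, and Bglap3 at 421 and 523. Osteoblast-like cells held 88.9% and 95.4% of all Bglap UMIs of the kept cells, 21237 of 23590 and 14340 of 15290 Bglap2 UMIs, and 86.5% and 91.8% of the Bglap3 UMIs. Over 14 classes and clusters with at least 10 cells in each library, Bglap and Bglap3 were highest in the osteoblast-like cells, above the next class in both libraries. Bglap2 also had its highest mean there, but its range overlapped that of an unnamed cluster led by Mmp9 and cell cycle genes such as Hist1h2ap, Birc5 and Top2a (5063 and 286 CPM).

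That Mmp9/Hist1h2ap cluster (30 and 56 cells) differed between the libraries. Its Bglap was at 12173 CPM in library 1 and 391 in library 2, and in library 1 a single cell held 4153 of its 4196 Bglap UMIs. Another unnamed cluster, led by S100a5 and Stoml3 (34 and 70 cells), held 621 and 464 Bglap UMIs in its 219240 and 352096 UMIs. This was a higher level than in the cartilage and fibroblast-like classes that follow. In library 1 a single cell held 573 of the 621, and in library 2 the highest cell held 63. In chondrocyte-like cells Bglap was at 57.2 and 182 CPM, and 1 cell held 345 of the 672 UMIs in library 2. Hypertrophic chondrocyte-like cells held 33.8 and 16.8 CPM, periosteal fibroblast-like cells 36.7 and 15.2, and B cell-like barcodes 6.55 and 4.91. Erythroid-like barcodes, as a second measure of free RNA, held 13.2 and 5.11 CPM of Bglap. The cartilage and fibroblast-like levels were above this background in each library, and far below the osteoblast-like levels. Few UMIs lay behind some of them. Hypertrophic chondrocyte-like cells had 13 and 19 Bglap UMIs (at most 6 and 11 in a cell). Periosteal fibroblast-like cells had 9 and 42 (at most 7 in a cell of either library).

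**Figure D1:**
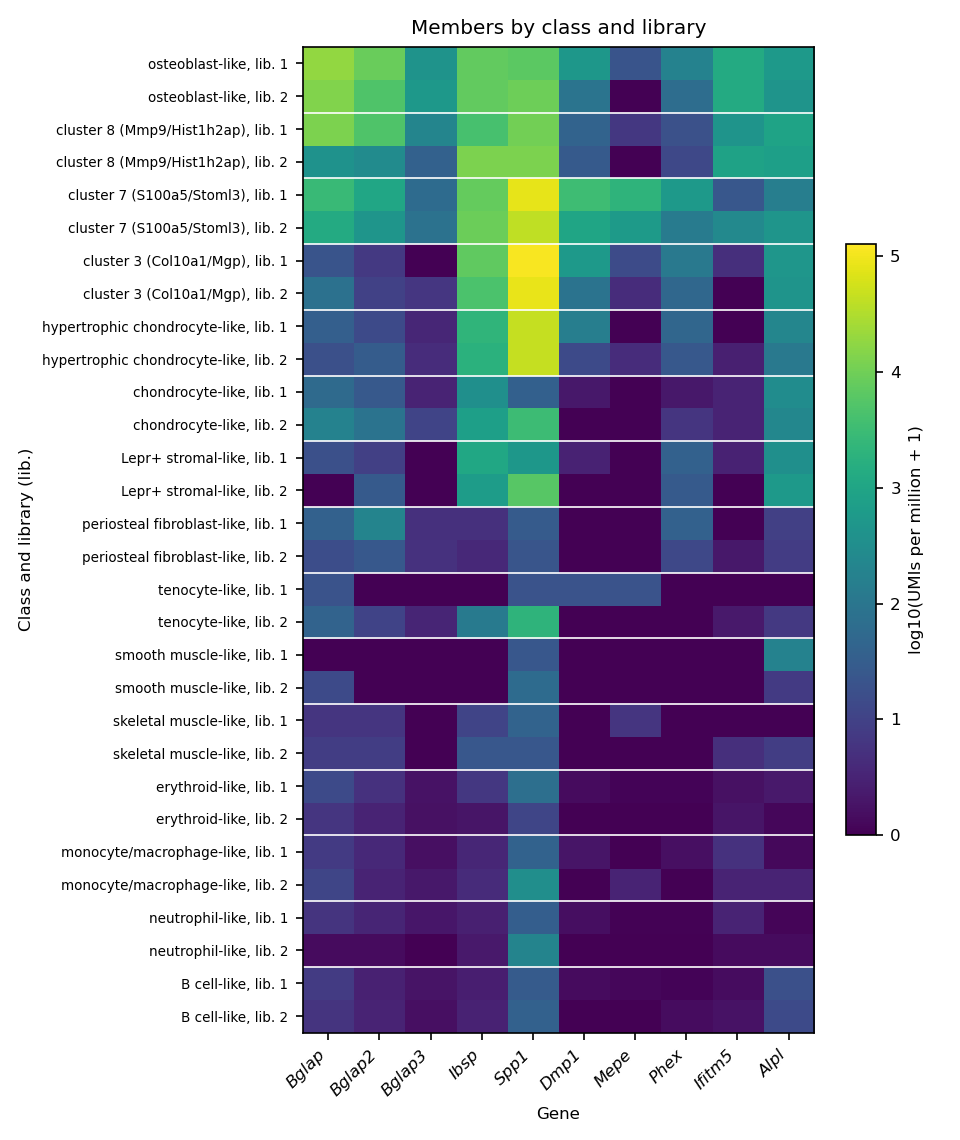
Level of each of the 10 genes (columns) in classes and clusters of each library (rows), as the color of log10(CPM + 1), a log scale. The unnamed hematopoietic class and the unnamed clusters led by Msmp and Cytl1 and by Igkc and Cd79b are not drawn. The osteocalcin genes and Ifitm5 are high in the osteoblast-like rows (Bglap 18778 and 13491 CPM), Spp1 is highest in the Col10a1/Mgp rows (113809 and 84900 CPM), and Mepe stands out in the S100a5/Stoml3 rows (2062 and 588 CPM).

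To describe co-detection, each osteoblast-like cell was scored for at least 1 UMI of each osteocalcin gene. All 3 were found in 49 of 88 cells in library 1 (55.7%, exact binomial 95% interval 44.7 to 66.3) and in 71 of 165 in library 2 (43.0%, 35.4 to 51.0). Bglap and Bglap2 without Bglap3 were found in 24 and 31 cells, Bglap alone in 9 and 20, and Bglap2 alone in 3 and 10. Bglap3 was found without both of the others in 0 and 1 cells, and no osteocalcin UMI in 3 and 30 cells. Bglap3 was therefore nearly always counted beside the more abundant genes. In B cell-like barcodes all 3 were found in 1 of 1366 and 0 of 820. Some other stromal groups lay between. All 3 were found in 2 of 27 and 10 of 124 chondrocyte-like cells, in 3 of 34 and 10 of 70 cells of the S100a5/Stoml3 cluster, and in 2 of 30 and 6 of 56 of the Mmp9/Hist1h2ap cluster. Median depth was 29216 and 17719 UMIs in osteoblast-like cells and 7909 and 5491 in B cell-like barcodes. At an equal depth of 2000 UMIs per cell, the expected share with all 3 was 25.4% (87 cells) and 29.0% (159 cells) in osteoblast-like cells, and 3e-07% and 0% in B cell-like barcodes, so the order of the libraries turned when depth was made equal.

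For every 100 Bglap UMIs, osteoblast-like cells held 45.8 Bglap2 UMIs in library 1 (95% interval 45.1 to 46.6) and 36.0 in library 2 (35.4 to 36.7). Bglap3 was at 2.24 (2.11 to 2.39) and 3.88 (3.68 to 4.08) per 100 Bglap UMIs. The intervals of the libraries do not overlap for either ratio, but they cover counting error only, and with 1 value per library the difference was not tested. Across osteoblast-like cells of at least 2000 UMIs, CPM of Bglap ranked with CPM of Bglap2 (Spearman rho 0.94 in 87 cells and 0.92 in 159 cells) and of Bglap3 (0.90 and 0.85). These are descriptions, as cells of a library share its depth. Reads that fit both Bglap and Bglap2 cannot be assigned to one, which limits both counts. The Bglap3 ratio carries this limit through its Bglap denominator.

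Osteocalcin transcripts were concentrated in part of the osteoblast-like cells. Bglap had 100 UMIs or more in 38 of 88 cells (43.2%) and 48 of 165 cells (29.1%), and these cells held 98.2% and 96.5% of the class's Bglap UMIs. All of them had Bglap2, and 37 of 38 and 48 of 48 had Bglap3. The per-cell level of Bglap ran from 0 to 145375 CPM in library 1 (median 2182) and from 0 to 230758 in library 2 (median 788). In the highest cell, the 3 osteocalcin genes took 21.6% of all UMIs in library 1 and 33.1% in library 2. At the other end, 6 and 42 osteoblast-like cells had no Bglap UMI at medians of 26898 and 18681 UMIs, about the depth of the rest of their class.

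**Figure D2:**
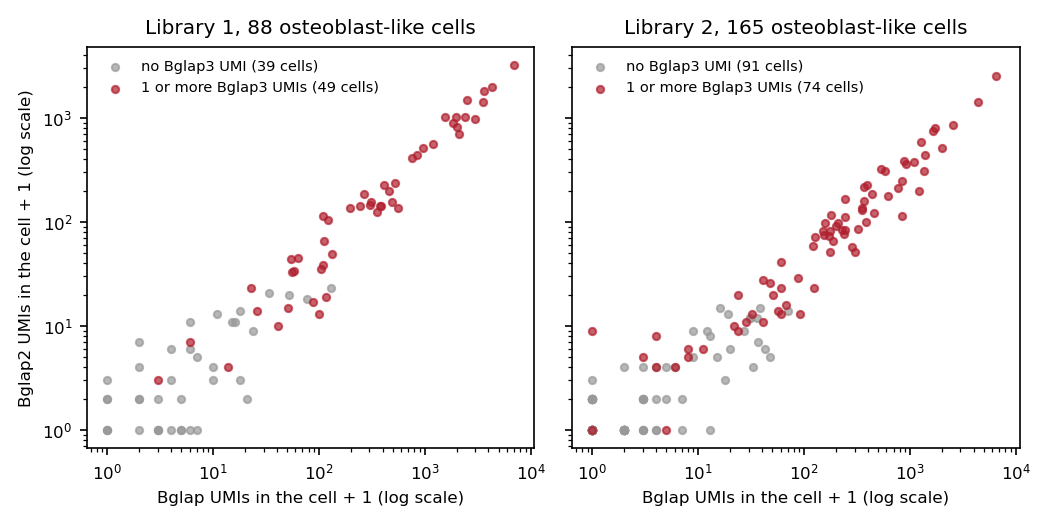
UMIs + 1 of Bglap2 (vertical axis, log scale) against UMIs + 1 of Bglap (horizontal axis, log scale) in each osteoblast-like cell. There are 88 cells of library 1 and 165 of library 2, and color marks cells with at least 1 Bglap3 UMI. Bglap2 follows Bglap over its range. Per 100 Bglap UMIs, Bglap2 was at 45.8 and 36.0 and Bglap3 at 2.24 and 3.88.

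Ibsp, Ifitm5 and Alpl were lower in the osteoblast-like cells with the most Bglap than in those with none. Osteoblast-like cells were grouped by their Bglap UMIs into 0 (6 and 42 cells), 1 to 9 (24 and 40), 10 to 99 (20 and 35) and 100 or more (38 and 48), and levels were taken as CPM of the UMIs other than osteocalcin. Ibsp, the bone sialoprotein gene, fell along these groups in library 1, from 29808 through 10089 and 6459 to 4443 CPM. In library 2 it fell from 14129 through 7449 and 5166 to 3116. The median cell showed the same order in library 2 (7393, 3718, 3191 and 1210), and in library 1 all but the last step (29991, 7626, 2598 and 3473). Across osteoblast-like cells of at least 2000 UMIs (87 and 159), the rank correlation of Ibsp with Bglap was -0.54 and -0.58. Here CPM was of all UMIs, osteocalcin included, so a high Bglap level by itself lowers the CPM of Ibsp. It is a description of cells that share a depth and a denominator.

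Ifitm5, which encodes a small membrane protein of osteoblasts, was at 2679, 1632, 826 and 1216 CPM along the groups in library 1. In library 2 these levels were 1755, 1392, 1362 and 808. Alpl was at 958, 660, 577 and 515 in library 1 and at 548, 479, 323 and 395 in library 2. The lowest of these levels lay in the cells with 10 to 99 for Ifitm5 in library 1 and Alpl in library 2. Col1a1 went the other way, from 64055 to 127346 in library 1 and from 66744 to 121019 in library 2. Sp7, an osteoblast transcription factor, lay between 193 and 214 in the 4 groups of library 1 and between 128 and 149 in library 2. Dmp1 was found in a larger share of the cells with more Bglap in library 1 (2 of 6, 12 of 24, 12 of 20 and 26 of 38), where its level was 141, 274, 826 and 544. In library 2 it was found in 11 of 42, 13 of 40, 15 of 35 and 18 of 48, and the level was 108, 41.6, 84.0 and 136. Phex was higher in the cells with 100 or more Bglap UMIs than in those with 0 in both libraries, but with no common order over the groups, at 147, 96.1, 303 and 200.1 in library 1 and 44.9, 40.3, 64.6 and 117 in library 2. By the summed UMIs, Spp1 was lowest in the cells with no Bglap UMI of both libraries (1855 and 1464). The median cell showed this in library 2 (298, 1213, 1101 and 1222 along the groups). In library 1 it was lowest in the cells with 10 to 99 (851, 1799, 438 and 1054). No test was run on these groups of cells, since cells are not replicates.

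**Figure D3:**
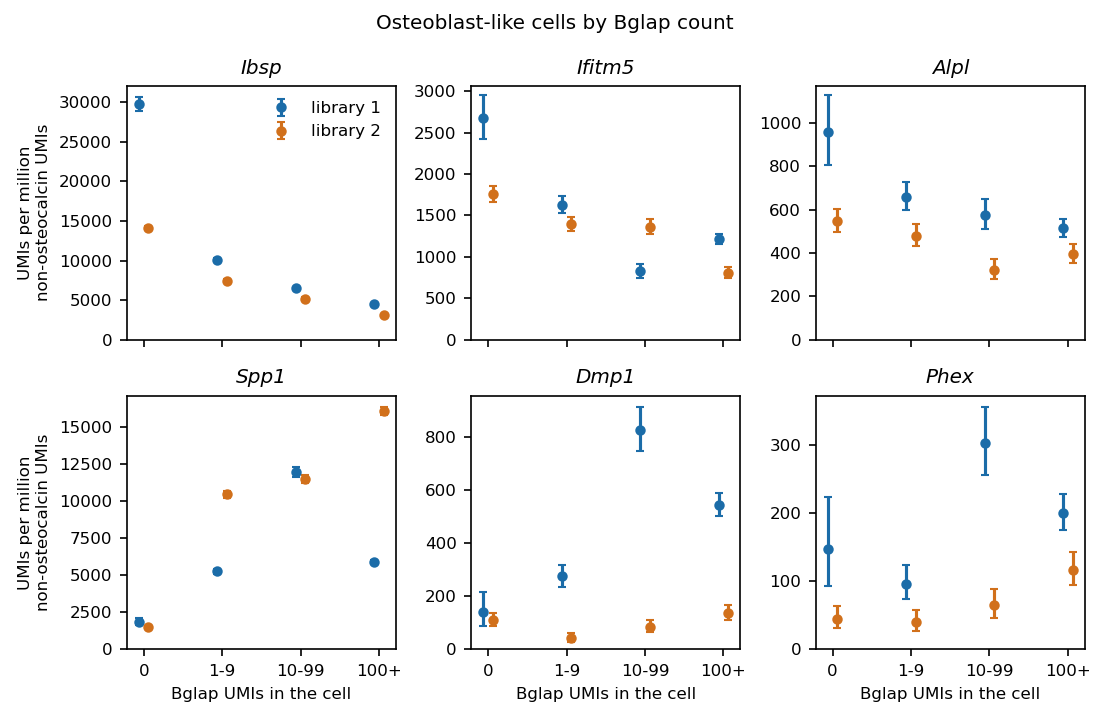
Level of Ibsp, Ifitm5, Alpl and other genes in osteoblast-like cells, as CPM of the UMIs other than osteocalcin (vertical axis). Cells are grouped by their Bglap UMIs (horizontal axis). Each library has its own points, with exact Poisson 95% intervals as bars. Ibsp falls along the groups in both libraries, from 29808 to 4443 in library 1 and from 14129 to 3116 in library 2.

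Ibsp encodes bone sialoprotein, an acidic matrix protein on which mineral crystals form. It was at 7652 and 7411 CPM in osteoblast-like cells and was found in 87 of 88 and 162 of 165 of them. Unlike osteocalcin, Ibsp was also high in cartilage with Col10a1. The Col10a1/Mgp cluster held 7305 and 4461 CPM with the transcript in 64 of 68 and 66 of 74 cells, and hypertrophic chondrocyte-like cells held 2168 and 1845 CPM. Lepr+ stromal-like cells held 1099 and 648 CPM. An unnamed cluster led by Msmp and Cytl1, with 73 cells in library 2 and 0 in library 1, held 10.8% of the Ibsp UMIs of library 2. The 165 osteoblast-like cells of that library held 46.3%. Periosteal fibroblast-like cells, at 4.08 and 2.90, were near the B cell-like level of 1.72 and 2.08. By the mean over libraries, the S100a5/Stoml3 cluster (7777 and 8952 CPM), the Mmp9/Hist1h2ap cluster (4195 and 12523 CPM) and the osteoblast-like cells led the order, and the range of the Mmp9/Hist1h2ap cluster took in those of both others. The level of the S100a5/Stoml3 cluster rested on 1 cell in each library, which held 1155 of its 1705 Ibsp UMIs in library 1 and 1797 of 3152 in library 2. Its median cell was at 788 and 510 CPM, below that of the osteoblast-like cells (4187 and 3182 CPM).

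Spp1 encodes osteopontin, which binds mineral and slows its growth and is also made outside bone. The Col10a1/Mgp cluster had the highest level, 113809 and 84900 CPM, in 66 of 68 and 70 of 74 cells. It was followed by the S100a5/Stoml3 cluster (80341 and 41475) and hypertrophic chondrocyte-like cells (45637 and 45219), whose ranges overlapped. In osteoblast-like cells Spp1 was at 6503 and 9623 CPM, and the median cell held 836 and 978. Chondrocyte-like cells held 35.2 and 3206 CPM, a wide gap between libraries, and 1 cell of library 2 held 2980 of that library's 11866 UMIs. Spp1 was also the gene with the highest level in hematopoietic classes, at 28.2 and 37.2 CPM in B cell-like, 32.8 and 195 in neutrophil-like and 39.2 and 326 in monocyte/macrophage-like barcodes.

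Dmp1, a matrix protein gene of osteocytes and late osteoblasts, was at 492 CPM in osteoblast-like cells of library 1 and at 91.5 in library 2. It was found in 52 of 88 and 57 of 165 cells. Its highest mean was in the S100a5/Stoml3 cluster (3298 and 986 CPM), above the Col10a1/Mgp cluster (570 and 88.2) and the osteoblast-like cells, whose ranges overlapped. Few cells carried it there: 12 of 34 and 9 of 70 had a Dmp1 UMI, the median cell was at 0, and a single cell held 264 of 723 UMIs in library 1 and 230 of 347 in library 2. Hypertrophic chondrocyte-like cells held 148 and 13.2 CPM, and in library 1 a single cell held 47 of the 57 UMIs. In each of these groups Dmp1 was higher in library 1 than in library 2. Periosteal fibroblast-like cells had no Dmp1 UMI, which allows up to 12.2 CPM in library 1 and 1.09 CPM in library 2.

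Mepe, a matrix phosphoglycoprotein gene known from osteocytes, was counted in few barcodes. It had 523 UMIs in library 1 and 215 in library 2, in 28 and 8 barcodes. The 9 and 3 barcodes with at least 5 UMIs held 497 and 207 of them. Of these 12 barcodes, 10 fell in the S100a5/Stoml3 cluster and 2 of library 1 in the osteoblast-like class. Each of the 12 also held Dmp1 (1 to 264 UMIs in library 1, 21 to 230 in library 2) and Spp1 (59 to 3202 and 728 to 2835). Bglap was at 0 to 2 UMIs in 11 of them and at 966 in the remaining one, an osteoblast-like cell with 48494 UMIs. Alpl was at 0 in the 10 barcodes of the S100a5/Stoml3 cluster and at 1 and 2 UMIs in the osteoblast-like cells. Mmp13, the collagenase of hypertrophic cartilage and bone, was at 699 UMIs in one of them and at 0 in 3.

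The S100a5/Stoml3 cluster (34 and 70 cells) was itself mixed. Its leading genes included S100a5, Stoml3, Omp and Gng13, which are known from olfactory sensory neurons, beside Mepe. Each of these olfactory genes was at 0 UMIs in the 12 barcodes, and Ptprc, which encodes CD45, was at 1 UMI in 1 of them and at 0 in 11. The barcodes with Mepe in this cluster were therefore not those with the olfactory genes.

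**Figure D4:**
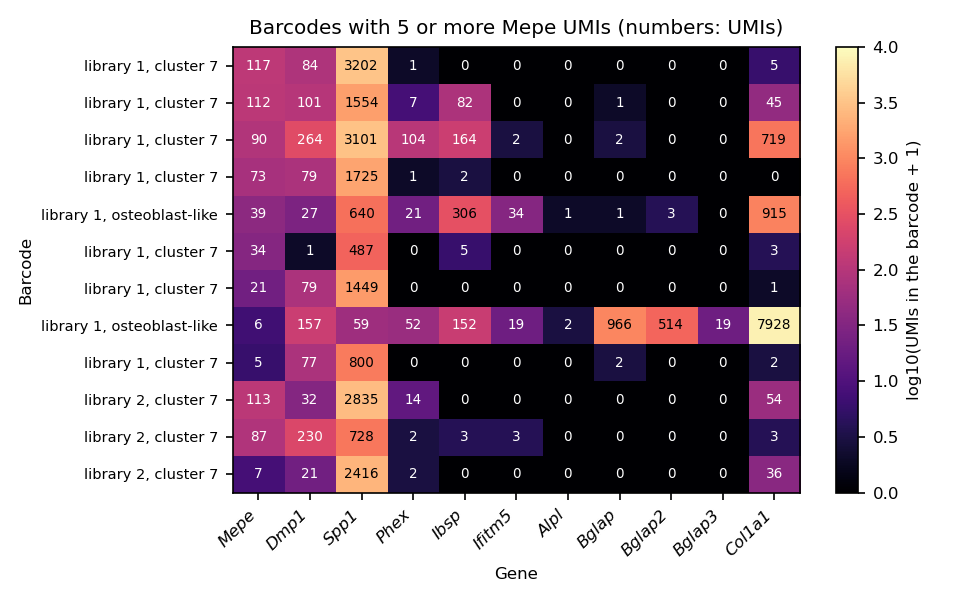
UMIs of Mepe, Dmp1, Spp1 and other genes (columns) in each of the 12 barcodes with at least 5 Mepe UMIs (rows, 9 of library 1 and 3 of library 2), as printed numbers and as the color of log10(UMIs + 1). Dmp1 and Spp1 are above 0 in every row, and Bglap exceeds 2 UMIs in 1 row (966).

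Phex encodes an endopeptidase of osteoblasts and osteocytes that cleaves peptides of acidic matrix proteins and is needed for normal phosphate balance. It was a low transcript, at 186 and 65.8 CPM in osteoblast-like cells and 46.8 and 23.8 in hypertrophic chondrocyte-like cells. The Col10a1/Mgp cluster held 112 and 49.4 CPM, a range that overlapped that of the osteoblast-like cells. The S100a5/Stoml3 cluster held 17.4% and 12.5% of all Phex UMIs, in 219240 and 352096 UMIs of the cluster. Osteoblast-like cells held 65.1% and 52.9%, in 2468582 and 2949459 UMIs, so the level per UMI was higher in that cluster in both libraries. In library 1 a single cell of the cluster held 104 Phex UMIs. Periosteal fibroblast-like cells held 36.7 and 11.9 CPM, in 2 of 19 and 17 of 294 cells, against 0.127 and 0.446 CPM in B cell-like barcodes. Chondrocyte-like cells held 1.10 and 5.13 CPM.

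Ifitm5 was the gene most restricted to the osteoblast-like cells beside the osteocalcins. It was at 1298 and 1299.9 CPM there, in 87 of 88 and 147 of 165 cells, and the class held 92.2% and 83.2% of its UMIs. The Mmp9/Hist1h2ap cluster followed with 426 and 854 CPM. Hypertrophic chondrocyte-like, chondrocyte-like and periosteal fibroblast-like cells held 2.20 CPM or less in each library, and B cell-like barcodes 0.445 and 0.744.

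Alpl, which encodes tissue-nonspecific alkaline phosphatase, was the most widely spread of the 10 genes. It was at 899 and 758 CPM in the Mmp9/Hist1h2ap cluster, 576 and 433 in osteoblast-like cells, 482 and 441 in the Col10a1/Mgp cluster and 339 and 567 in Lepr+ stromal-like cells. Chondrocyte-like cells held 302 and 228 CPM, above the 221 and 116 of hypertrophic chondrocyte-like cells in both libraries. Osteoblast-like cells held 48.9% and 35.2% of all Alpl UMIs, a lower share than for any other of the 10 genes but Spp1 and Mepe. B cell-like barcodes held 16.5 and 13.2 CPM, more than the 1.23 and 0.243 of erythroid-like barcodes, so the low level in B cell-like barcodes was not shared by both hematopoietic classes.

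To compare classes over libraries, UMIs were summed per class and library and 9 classes entered a single edgeR quasi-likelihood fit of 13541 genes with Benjamini-Hochberg adjustment. Of all genes tested, 8.29% were higher and 9.99% lower in osteoblast-like than in periosteal fibroblast-like cells. All 10 genes passed the test and were higher in osteoblast-like cells. Ibsp had a log2 fold change of 11.79 ± 0.77 (SE, 2 libraries, adjusted p = 1.52e-07), Ifitm5 of 10.86 ± 0.78 (1.13e-07) and Bglap of 10.18 ± 0.91 (2.69e-06). Spp1 (9.06), Bglap3 (7.31), Bglap2 (6.88), Alpl (6.71) and Phex (3.37) followed, with adjusted p from 1.47e-06 to 0.00213. The Bglap2 ratio of CPM was 43.1-fold in library 1 and 203-fold in library 2. In library 1 a single fibroblast-like cell held 33 of the 49 Bglap2 UMIs of its class. For Dmp1 (adjusted p = 3.12e-04) the fibroblast-like sums were at 0, and against 3 UMIs the difference was at least 40.3-fold in library 1 and at least 84.3-fold in library 2. Mepe passed on library 1 alone (adjusted p = 0.0393), since both classes were at 0 in library 2. In library 1 a single osteoblast-like cell held 39 Mepe UMIs, and the next held 6. With the library as a replicate block, Mepe did not pass (adjusted p = 0.129). Without the fibroblast-like sum of library 2, neither Phex (2.69, adjusted p = 0.064) nor Mepe (0.477) passed.

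Between the mineralizing tissues, 8 of the 10 genes were higher in osteoblast-like than in hypertrophic chondrocyte-like cells and 0 were lower, beside 12.2% of all genes higher and 8.6% lower. Ifitm5 (log2 10.81 ± 0.78, adjusted p = 1.14e-07), Bglap (10.31 ± 0.91, 2.54e-06), Bglap2 (9.06 ± 0.94, 1.04e-05) and Bglap3 (8.03 ± 0.66, 9.84e-07) differed most. Per library, Bglap was 556-fold and 805-fold higher, Bglap2 662-fold and 162-fold, and Bglap3 162-fold and 148-fold. In library 2, 1 hypertrophic chondrocyte-like cell held all 34 Bglap2 UMIs of its class, and without that library's hypertrophic sum the log2 difference of Bglap2 was 9.99 (adjusted p = 5.16e-04). Ifitm5 was at least 166-fold higher in library 1, where the hypertrophic sum was at 0. Dmp1 (2.90, adjusted p = 0.0422), Phex (2.81, 0.00412), Ibsp (2.80, 7.09e-04) and Alpl (2.51, 0.00174) differed by log2 values below 3. Dmp1 and Phex depended on single sums. Dmp1 was at 1.22 without the osteoblast-like sum of library 1 (adjusted p = 0.491), at 1.96 without the hypertrophic sum of library 2 (0.283) and at 5.32 without that of library 1 (0.0142). Phex was at 1.86 and 2.40 without the first and the second of these sums (adjusted p = 0.0807 and 0.077). Mepe (2.83, adjusted p = 0.194) and Spp1 (-1.61, adjusted p = 0.407) did not pass. The 95% interval of the Spp1 difference ran from -4.28 to 1.06. The test therefore showed neither a higher nor a lower level in osteoblast-like cells, although the CPM was lower in both libraries (6503 and 9623 against 45637 and 45219). The spread behind the interval was estimated over all 9 classes of the fit, among them chondrocyte-like cells at 35.2 and 3206 CPM.

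The scaling between these classes moved the values. The TMM factors were 1.69 and 1.56 for hypertrophic chondrocyte-like and 0.857 and 0.893 for osteoblast-like sums, so fitted differences lay higher than plain CPM ratios. The log2 ratio of mean CPM was 1.91 for Ibsp, 1.58 for Alpl and -2.49 for Spp1. The definition of hypertrophic cells mattered as well. When they were set as cartilage-class cells with at least 0.1% of UMIs from Col10a1 (82 and 129 cells), 4 genes were higher in osteoblast-like cells, the 3 osteocalcin genes and Ifitm5. Ibsp (log2 1.02, adjusted p = 0.429), Phex (1.29, 0.194), Alpl (0.57, 0.511) and Dmp1 (0.54, 0.783) then did not pass. These hypertrophic cells held Ibsp at 5485 and 2901 CPM and Spp1 at 82540 and 51661.

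**Figure D5:**
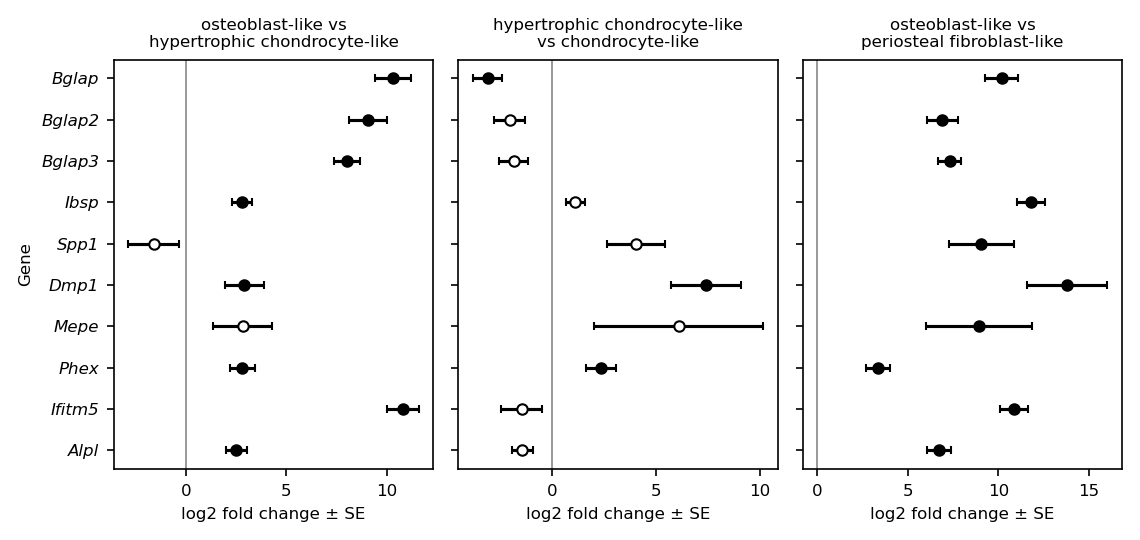
Log2 fold change of each of the 10 genes (rows) in the 3 comparisons of classes, from the edgeR fit of UMI sums. Bars are the standard error, and points are filled where the adjusted p is under 0.05. The osteocalcin genes and Ifitm5 lie far from 0 against both fibroblast-like and hypertrophic chondrocyte-like cells. The point of Spp1 against hypertrophic chondrocyte-like cells is open, and its 95% interval, which is not drawn, spans 0 (-4.28 to 1.06).

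Within cartilage, 2 of the 10 genes were higher and 1 was lower in hypertrophic chondrocyte-like than in chondrocyte-like cells, beside 6.57% of all genes higher and 11.1% lower. Dmp1 was higher (adjusted p = 0.0054), with 57 and 15 UMIs against 1 and 0, which is at least 16.3-fold in library 2. Phex was higher by log2 2.36 ± 0.72 (adjusted p = 0.0294), and Bglap was lower, with a log2 fold change of -3.12 ± 0.71 (adjusted p = 0.00597). The ratio of Bglap CPM was 0.591 in library 1 and 0.0923 in library 2, and single chondrocyte-like cells held 26 of 52 and 345 of 672 Bglap UMIs. Bglap did not pass without the chondrocyte-like sum of library 2 (-1.95) or the hypertrophic sum of library 2 (-2.67, adjusted p = 0.0856). Dmp1 did not pass without the hypertrophic sum of library 1 (adjusted p = 0.0968) or the chondrocyte-like sum of library 2 (0.101), and Phex kept its call without the latter (0.0452) and lost it when any of the other 3 sums was left out. Ibsp (1.11, adjusted p = 0.109) and Spp1 (4.04, adjusted p = 0.0555) did not pass, nor did Alpl (-1.44, 0.0517), Bglap2 (-2.04, 0.0679) and Bglap3 (-1.86, 0.0717). With the library as a replicate block 8 genes passed, Dmp1, Phex, Spp1 (adjusted p = 0.0144) and Ibsp (0.0415) higher and Bglap, Bglap2 (0.0313), Bglap3 (0.0305) and Alpl (0.00596) lower. Without the hypertrophic sum of library 1 or of library 2, 1 gene passed. Library 1 held 17 hypertrophic and 27 chondrocyte-like cells.

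The other genes of the mineralization pathway were a list of 21, of which 16 were tested. The remaining 5 (Sost, Fgf23, Dspp, Ahsg and Gprc6a) had 0 to 15 UMIs per library. Against hypertrophic chondrocyte-like cells, 6 were higher and 4 lower in osteoblast-like cells, beside the 12.2% and 8.6% of all genes. Omd (osteomodulin, log2 6.70), Vkorc1 (4.93), which recycles the vitamin K that osteocalcin needs, and Smpd3 (4.42), a matrix vesicle sphingomyelinase, were higher. Mgp, the vitamin K-dependent inhibitor of mineral, was lower by the widest margin (-9.94 ± 0.93, adjusted p = 3.06e-06), at 11.3 and 12.9 CPM against 26826 and 17807. Fam20c, the kinase of secreted acidic matrix proteins, was also lower (-3.53), as was the phosphate transporter gene Slc20a1 (-3.05). Ggcx, Sparc and Bmp1 were higher and Slc20a2 lower as well.

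Against periosteal fibroblast-like cells, 10 of the 16 were higher in osteoblast-like cells and 1 was lower, beside 8.29% and 9.99% of all genes. The lower one was again Mgp (-6.52, adjusted p = 4.10e-05). Runx2 (5.66), Phospho1 (4.95), Smpd3 (4.26), Omd (3.27) and Dlx5 (2.56) were the next by size, all higher. Within cartilage, where 6.57% of all genes were higher and 11.1% lower, 1 of the 16 was higher in hypertrophic chondrocyte-like cells, Fam20c (3.78 ± 0.41, adjusted p = 2.06e-05), and 5 were lower, Omd (-6.86), Smpd3 (-4.66), Vkorc1 (-4.47), Ggcx (-3.08) and Sparc (-2.74). Runx2 and Dlx5 did not pass between osteoblast-like and hypertrophic chondrocyte-like cells (log2 0.48, adjusted p = 0.569, and -0.02, adjusted p = 1).

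The genes most like each of the 10 were found over 28 sums (14 classes and clusters in 2 libraries) by Pearson's r of log2(CPM + 10) among 11663 genes. These are descriptions over sums that share libraries and classes. Among the 10 genes themselves, the osteocalcin genes lay closest to each other (r from 0.95 to 0.97) and next to Ifitm5 (0.87 to 0.93). Ibsp lay closest to Alpl (0.95) and Spp1 (0.93), and Dmp1 to Phex (0.93). Outside the 10, Bglap was most like Col13a1 (0.956) and Fat3 (0.948), and Ifitm5 most like Hoxb2 (0.969), Slc36a2 (0.969) and Fat3 (0.959). Bglap2 was most like Robo2 (0.955) and Csrnp3 (0.946), and Bglap3 most like Insc, Col24a1 and Col13a1 (0.955 to 0.965). Ibsp was most like Unc5b, Cd200 and Gpc1 (0.915 to 0.931) and Spp1 most like Mmp13, Bmp8a and Jam2 (0.883 to 0.930). Alpl was most like the cartilage collagen genes Col11a1 and Col11a2 and Sdc3 (0.928 to 0.942). Dmp1 was most like Fetub, Rnf150 and Nes (0.819 to 0.890), Phex most like Scrn1, Rnf150 and Sema5a (0.834 to 0.882), and Mepe, whose level rested on few barcodes, most like Ptprr, Fam131c and Aplp1 (0.978 to 0.983).

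Reporter levels differed between the classes of library 2 and are given because they moved with the class. EGFP was at 5103 CPM in the Col10a1/Mgp cluster, 1566 in hypertrophic chondrocyte-like cells and 334 in osteoblast-like cells of library 2, and at 0 in library 1. Their part in the differences between classes was not tested.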

How the data were processed

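UMI counts of 2 mouse periosteum libraries, replicates 1 and 2 of one condition, were used. The authors demultiplexed, aligned and counted reads with Cell Ranger at default parameters (version 6.1.2 and mm10 per the labels) and deposited UMI counts for each gene and barcode, not normalized. A 3′ UMI count holds each captured transcript once, whatever its length. The deposited counts summed to 100808649 UMIs over 9932 barcodes in library 1 and 33306452 over 3659 barcodes in library 2. In the osteoblast-like, cartilage and fibroblast-like classes compared, library 1 held fewer UMIs than library 2 (245398 against 2761841 in periosteal fibroblast-like cells). Low counts of these classes are therefore less precise in library 1. Intervals (exact Poisson for counts, exact binomial for shares) and limits from a count of 0 (3 UMIs) cover counting error only. The labels do not say that the libraries came from separate mice, so p-values measure the spread between these libraries.

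Barcodes with at least 500 genes, at least 500 UMIs and at most 10% mitochondrial UMIs were kept, as in the study's methods. Integration of the libraries used Seurat 5.3.0 under R 4.3.3 with 3000 variable genes, 30 integration dimensions and 15 principal components, and clustering at resolution 0.8 was run first for all cells and then for stromal cells. The 10 genes and the 21 pathway genes entered neither the variable genes nor the marker lists. A class name needed at least 3 markers of the best-matching list, and no other list with more of the cluster's leading genes. Stromal clusters that best matched a hematopoietic list were also left unnamed. Scrublet in scanpy 1.11.5 called 2.29% of kept barcodes doublets in library 1 and 0.0346% in library 2, and their removal was run as an alternative. UMIs were summed per class and library for the 9 named classes that had 10 or more cells in both libraries, filtered with filterByExpr, scaled by TMM and tested with edgeR 4.0.16 (quasi-likelihood, all classes in 1 fit, Benjamini-Hochberg, threshold 0.05). The test was also run on simulated counts, drawn with a set spread, not that of the data, and with no effect shared within a library. That run does not cover calls that rest on sums of 0 or on single cells. Comparisons of osteoblast-like with osteogenic progenitor-like cells and of Lepr+ stromal-like with periosteal fibroblast-like cells were planned and could not be made, because no cluster was named osteogenic progenitor-like and library 2 held 8 Lepr+ stromal-like cells.

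The genes named were all 10, the pathway genes with the 6 largest changes past the threshold in each comparison (others by name only) and the 3 genes most like each of the 10, of which the third for Bglap and for Bglap2 is not reported here. The 10 genes, the lists and the tests were chosen with earlier results of these data known. Alternatives were other size factors, no filter, edgeR's legacy method, DESeq2 1.42.0, a library block, resolutions 0.4 and 1.2, the left-out genes kept, at most 5% mitochondrial UMIs, doublets removed, hypertrophic cells set by Col10a1, each library sum left out and, added after the data were seen, stromal classes only. Sums with the same number came from the same library, so the numbers pair them by origin. Their deviations from the class means had correlations from 0.0508 to 0.461 over 36 pairs of classes (median 0.176, over 0.1 in 30).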

Additional observations from a re-analysis of the deposited data

Results flagged for a closer look

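Reporter sequences were counted in libraries labelled wild type, outside the 10 genes. EGFP had 0 UMIs in library 1 and 6837 in library 2. The tdTomato sequence had 1482 UMIs in library 1 and 4627 in library 2.

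Mepe was counted mostly outside the compared classes, in the unnamed S100a5/Stoml3 cluster, with 452 UMIs in library 1 and 207 in library 2, where B cell-like barcodes held 4 and 0. Spp1 was likewise counted in the unnamed Col10a1/Mgp cluster, with 57890 UMIs in library 1 and 48128 in library 2, more than in the osteoblast-like cells of the same library. These clusters entered none of the main tests.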

How the results depend on the processing

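Leaving out each library's sum of a class in turn gave 6 to 9 of the 10 genes called between osteoblast-like and hypertrophic chondrocyte-like cells, 1 to 4 between hypertrophic chondrocyte-like and chondrocyte-like cells and 8 to 10 against periosteal fibroblast-like cells, and 9 to 10, 5 to 7 and 7 to 10 pathway genes. The class with 1 sum left was assumed to vary like the others. Without the osteoblast-like sum of library 1, Mepe turned against hypertrophic chondrocyte-like cells (log2 -6.30, adjusted p = 0.352), since library 2 held no Mepe UMI in that class, and the values over all sums left out ran from -6.30 to 8.94. With hypertrophic cells set by Col10a1, 4 genes were called against osteoblast-like cells, and Alpl turned to higher in hypertrophic than in chondrocyte-like cells (1.06, adjusted p = 0.266). In that cartilage comparison 6 genes were called without a filter, 5 with stromal classes only and 8 under the replicate block by library. The block also ended the call of Mepe against fibroblast-like cells and changed no other call among the 10 genes in the 3 comparisons. At resolution 0.4, 7 pathway genes were called against fibroblast-like cells. The cause of these changes was not tested.

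The share of osteoblast-like cells with all 3 osteocalcin genes was 25.4% and 29.0% at 2000 UMIs, and 34.5% in library 2 with at least 2 UMIs of each. Bglap2 per 100 Bglap UMIs was 44.0 and 34.15 at resolution 1.2 and 35.3 in library 2 with at most 5% mitochondrial UMIs. The other 91 values of these comparisons stayed within their limits. Of the values of single genes, 468 kept their direction and side of the threshold or their level, 29 lost the threshold, 22 gained it and 25 moved, among them 9 background levels between B cell-like and erythroid-like barcodes.

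Library 1 held 17 hypertrophic and 19 fibroblast-like cells, so the limits from a count of 0 were highest there.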
